A study of Caenorhabditis elegans with 20 samples.

Results

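The infection response genes *irg-1* to *irg-7* of *Caenorhabditis elegans* were followed across 20 RNA-seq libraries of whole dauer larvae. The 7 genes were taken by their symbols from the 46925 genes of the deposited table, and none was left out for its values. The family itself was picked on earlier results of these libraries, in which *irg-5* responded to 5-Ph-IAA. For that reason every comparison of the *irg* genes that uses the ligand's libraries is described here without p-values, and their only test is that of TIR1 alone against neither component. Where calls of *irg* genes in the ligand's comparisons are named or counted, including under other settings, they are a description. Other genes are given with their tests. Their lists were also chosen with earlier results of these libraries known, so those p-values are not independent of the choice.

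An infection response gene is named for its induction in animals that feed on pathogenic bacteria such as *Pseudomonas aeruginosa*, and the name does not mark a family of related proteins. *irg-1* and *irg-2* are known as targets of the bZIP transcription factor ZIP-2, which acts when translation in intestinal cells is blocked. *irg-4*, *irg-5* and *irg-6* encode secreted proteins with a CUB-like domain and are known as intestinal targets of the p38 MAPK PMK-1, whose reporters are widely used to follow immune activation. *irg-7* encodes a large secreted protein needed for pathogen defense, and less is known of *irg-3*.

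All animals carried *daf-2(e1370)*, which arrests larvae as dauers at 25°C, and *daf-16(ot853)*, an allele in which the transcription factor DAF-16/FoxO bears mNeonGreen and an auxin-inducible degron. The experimental condition combined TIR1, an F-box protein expressed from the intestinal *ges-1* promoter in strain OH17582 (*otSi2*), with 100 μM of its synthetic auxin ligand 5-Ph-IAA, so that DAF-16 was degraded in the intestine. The 3 controls were 5-Ph-IAA alone in strain OH14654, which has no TIR1, TIR1 alone on solvent, and neither component. Solvent plates and ligand plates both held 0.2% ethanol, about 24000 animals grown for 3 days were pooled per sample, and each condition had 5 biological replicates. The mutation in the insulin receptor and the tagged *daf-16* allele were thus shared by every library, so no wild-type dauer is among them.

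Between 3989669 and 15585703 reads per library fell on genes. Replicate 5 of the experimental condition had the fewest, and 21.4% of its reads were on rRNA genes. *daf-16* mRNA lay between 7762 and 8897 normalized counts in the experimental condition and between 7968 and 9024 in the controls, and it does not check the labels because the degron acts on the protein. The RNA is from whole animals, and more RNA per cell cannot be told apart from more cells of a type. All intestine, muscle, neuron and dauer markers examined were detected. Summed normalized counts of 8 intestine markers were 14720 to 15740 in the experimental condition and 10090 to 10800 in the controls, with 4 of 8 called higher against 5-Ph-IAA alone. The sum of 10 oocyte markers was 2586 to 6679 in the experimental condition against 1433 to 2934 in the controls, and all 10 were called higher against 5-Ph-IAA alone. The 6 yolk protein genes summed to 8617 to 53260 in the experimental condition and to 0.991 to 14130 in the controls, and 5 hypodermis markers to 355 to 819 in the experimental condition and 23.8 to 469 in the controls, with all 11 called higher against 5-Ph-IAA alone. None of the pharynx, body wall muscle, neuron and dauer markers was called. The part of these other tissues in the *irg* results was tested only with the oocyte sum as a covariate. Whether the pooled animals of the conditions also differed in developmental stage was not tested.

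The 7 genes lie at 7 separate places on chromosomes IV, V and X (coordinates from the WBcel235 annotation, Ensembl release 115). *irg-3* (V:2592591-2595062), *irg-1* (V:3523587-3524679) and *irg-2* (V:4042181-4043601) are on the left part of chromosome V and on the forward strand. *irg-5* (V:13737010-13738474) is on the reverse strand of the same chromosome. *irg-4* (IV:12435833-12438236, forward) and *irg-6* (IV:12912722-12914969, reverse) share chromosome IV, and *irg-7* (X:3235754-3243636, reverse) is the one on X. All are protein-coding genes, with 4 exons in *irg-1* and *irg-2* and 25 in *irg-7*, and none overlaps another annotated gene on either strand.

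Their levels spanned the range of the transcriptome. Per kilobase of exon and averaged over all 20 libraries, *irg-7* had 2528 normalized counts, *irg-5* 526, *irg-4* 84.0, *irg-1* 43.2, *irg-2* 29.9, *irg-3* 4.58 and *irg-6* 0.260. By mean normalized count, without the correction for exon length, *irg-7* was at the 99.7th percentile of the genes tested. In animals with neither component, *irg-1* at 35.6 ± 11.5, *irg-2* at 33.9 ± 6.13 and *irg-4* at 33.8 ± 11.2 normalized counts per kilobase lay within each other's spread (SD, n = 5). In the experimental condition the same genes separated, with *irg-4* at 227 ± 94.7, *irg-1* at 76.5 ± 16.4 and *irg-2* at 30.8 ± 4.05 normalized counts per kilobase. *irg-6* stayed under the mean of 2 normalized counts that a test needed, so 6 of the 7 genes were tested.

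**Figure D1:**
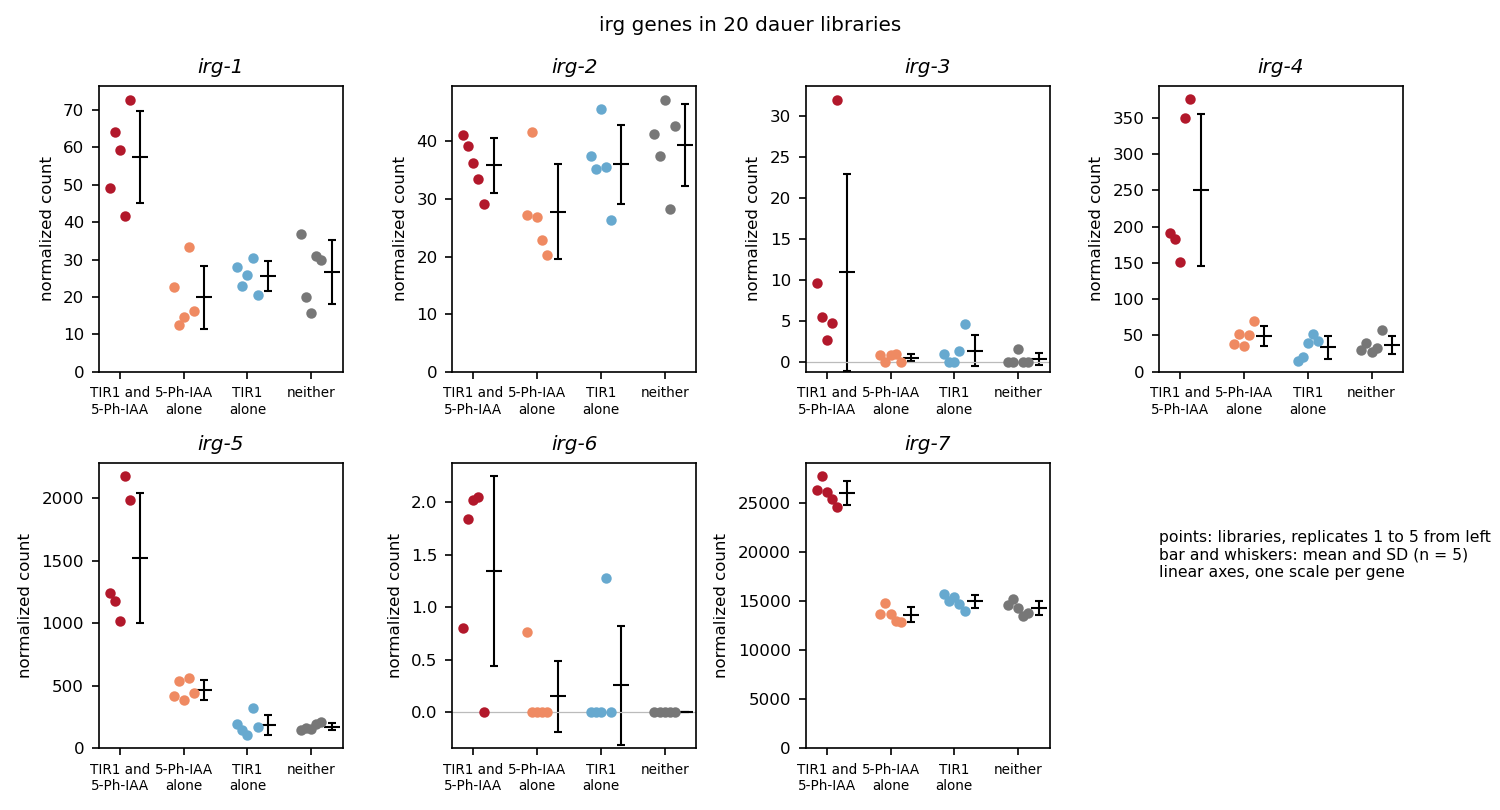
Normalized counts of the 7 *irg* genes in each library, by condition, on linear axes that differ between genes; points are replicates 1 to 5 and the bar with whiskers is the mean with its SD (n = 5). The 5 experimental libraries lie above the 15 others for *irg-1*, *irg-4*, *irg-5* and *irg-7*, while *irg-2* overlaps in all conditions and *irg-6* stays at or below 2.05.

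Of the genes for secreted CUB-like proteins, *irg-5* was the one that differed between the controls as well. Its normalized counts were 1247, 1182, 1022, 2179 and 1985 in experimental replicates 1 to 5, against 415, 539, 384, 563 and 441 with 5-Ph-IAA alone, 192, 147, 106, 319 and 174 with TIR1 alone, and 146, 161, 153, 195 and 207 with neither. The conditions formed 3 levels without overlap, with the experimental libraries highest, those with the ligand alone next, and TIR1 alone and neither mixed at the lowest level. Means were 1523 ± 521, 468 ± 78.2, 188 ± 80.4 and 172 ± 26.9 in the same order of conditions (SD, n = 5). 5-Ph-IAA thus went with an 8.12-fold higher mean where TIR1 was present and a 2.72-fold higher mean where it was absent. The fitted log2 changes on log2(normalized count + 1) were 3.05 (SE 0.21) with TIR1 and 1.43 (SE 0.21) without it, a difference of 1.61 (SE 0.30), or 3.05-fold.

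*irg-5* was 1 of 5 genes in the whole table that met the call when animals given 5-Ph-IAA alone were set against those with neither component, or 0.0293% of the 17090 genes tested. A gene was called where its limma adjusted p was under 0.05 and its level differed at least 1.5-fold. It was the only *irg* gene among the 6 tested to do so, and its selection on this response leaves nothing further to read from that count. The other 5 tested genes had log2 changes from 5-Ph-IAA alone of -0.51 (*irg-2*), -0.43 (*irg-1*), -0.07 (*irg-7*), 0.26 (*irg-3*) and 0.41 (*irg-4*).

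*irg-4* showed a like separation with 1 level fewer. The normalized counts were 190.6, 182.9, 150.6, 349.8 and 375.4 in the experimental condition, against 38.6, 51.4, 35.8, 50.6 and 70.2 with 5-Ph-IAA alone, 14.98, 19.99, 39.6, 52.1 and 42.3 with TIR1 alone, and 30.2, 39.0, 26.8, 32.3 and 57.7 with neither. Every experimental library was above every control library, and the 3 controls overlapped one another. The mean of 249.9 ± 104 in the experimental condition was 7.39-fold that of TIR1 alone (33.8 ± 15.7) and 5.07-fold that of 5-Ph-IAA alone (49.3 ± 13.6; SD, n = 5). The log2 change with 5-Ph-IAA was 2.89 (SE 0.30) in animals with TIR1 and 0.41 (SE 0.30) in those without, a difference of 2.48 (SE 0.42). Unlike *irg-5*, then, *irg-4* had no separate level in animals given the ligand without TIR1, although the difference between these genes was not tested.

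*irg-6*, which also encodes a CUB-like protein, was close to absent from the libraries. It drew 12 reads in all, of which 1, 3, 3, 3 and 0 came from the experimental replicates, 1 from the 5-Ph-IAA alone libraries, 1 from TIR1 alone and 0 from neither. Of the 10 experimental reads, none came from replicate 5, the shallowest library. No fold change is given for *irg-6*, since at this depth a fitted value is set by the count of 1 added before the logarithm.

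*irg-1*, the first of the ZIP-2 targets, also separated the experimental condition from the rest. It had 49.05, 64.2, 59.2, 41.7 and 72.8 normalized counts in the experimental libraries, against 22.7, 12.4, 14.7, 33.4 and 16.3 with 5-Ph-IAA alone, 28.1, 22.8, 25.8, 30.5 and 20.6 with TIR1 alone, and 36.9, 19.9, 15.7, 31.0 and 30.02 with neither. The lowest experimental value, 41.7, was above the highest control value, 36.9, while the controls overlapped. Means were 57.4 ± 12.3, 19.9 ± 8.47, 25.6 ± 3.97 and 26.7 ± 8.64 in the same order (SD, n = 5). The log2 change with 5-Ph-IAA was 1.12 (SE 0.25) with TIR1 and -0.43 (SE 0.25) without, a difference of 1.55 (SE 0.35).

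*irg-2*, the other ZIP-2 target, behaved differently and had overlapping values in all 4 conditions. Its normalized counts were 41.0, 39.1, 36.3, 33.5 and 29.1 in the experimental condition, against 27.3, 41.6, 26.9, 22.9 and 20.2 with 5-Ph-IAA alone, 37.4, 35.2, 45.6, 35.6 and 26.3 with TIR1 alone, and 41.3, 37.4, 47.2, 28.3 and 42.7 with neither. Of the 5 libraries with the ligand alone, 4 were below every experimental library and replicate 2 was above them all. The log2 change with 5-Ph-IAA was 0.00 (SE 0.19) with TIR1 and -0.51 (SE 0.19) without it, a difference of 0.51 (SE 0.27). The sign of the first value turned to -0.08 after quantile normalization and to -0.05 with columns scaled to equal totals.

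*irg-3* rested on few reads. In the experimental replicates it had 12, 9, 4, 7 and 11 reads, against 1, 0, 1, 1 and 0 with 5-Ph-IAA alone, 1, 0, 0, 1 and 4 with TIR1 alone, and 0, 0, 1, 0 and 0 with neither. Of the 53 reads in all, 43 were in the experimental condition, and the reads were highest there except that replicate 5 of TIR1 alone equalled the lowest experimental library. Scaled to library size, the experimental values were 9.65, 5.50, 2.69, 4.78 and 32.01 normalized counts, with the shallow replicate 5 far above the others. The log2 change with 5-Ph-IAA was 2.19 (SE 0.57) with TIR1 and 0.26 (SE 0.57) without, a difference of 1.94 (SE 0.80). Values fitted for so low a gene depend on the count added before the logarithm, and those for the first comparison ran from 1.12 to 2.90 over 11 other settings.

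*irg-7* was the most abundant of the genes and the one with the smallest spread. It had 26407, 27781, 26188, 25406 and 24582 normalized counts in the experimental condition, against 13756, 14792, 13725, 12974 and 12877 with 5-Ph-IAA alone, 15776, 15000, 15454, 14732 and 14055 with TIR1 alone, and 14621, 15270, 14274, 13528 and 13774 with neither. The experimental libraries lay far above all controls, and the controls lay close together. Means were 26073 ± 1195, 13625 ± 770, 15003 ± 666 and 14293 ± 692 in that order (SD, n = 5), so that SDs were 4.58, 5.65, 4.44 and 4.84% of the mean, compared with 41.8% for *irg-4* and 34.2% for *irg-5* in the experimental condition. The log2 change with 5-Ph-IAA was 0.80 (SE 0.04) with TIR1 and -0.07 (SE 0.04) without it, a difference of 0.87 (SE 0.06).

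**Figure D2:**
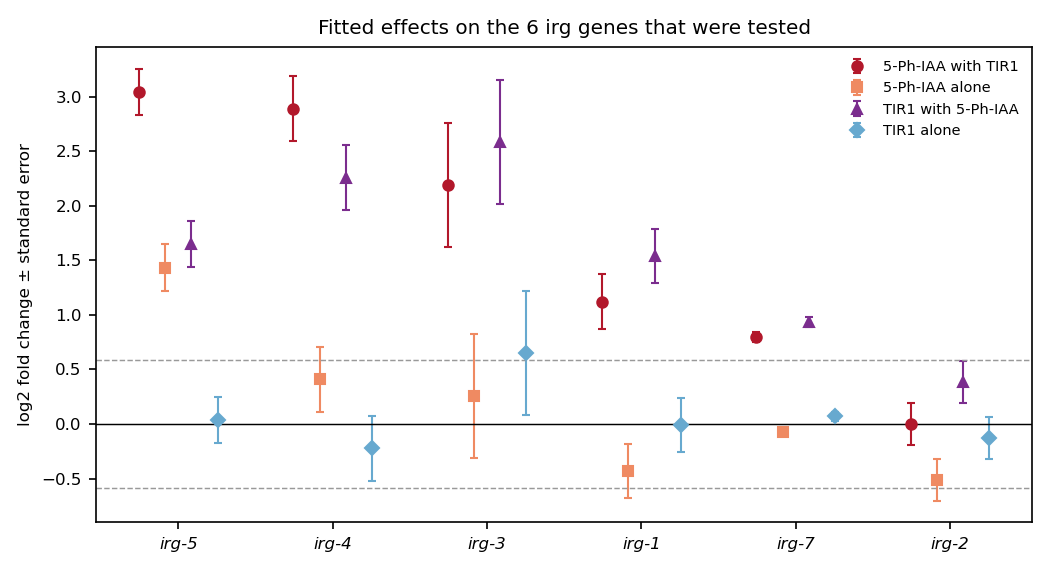
Log2 fold changes on log2(normalized count + 1) with their standard errors for the 6 tested *irg* genes in 4 comparisons, from the limma fit to 20 libraries; dashed lines mark 1.5-fold. 5-Ph-IAA with TIR1 and TIR1 with 5-Ph-IAA share the experimental libraries and lie above 1.5-fold for all genes shown except *irg-2*, and 5-Ph-IAA alone does so for *irg-5* only (1.43).

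Counted together, 5 of the 6 tested genes met the call for 5-Ph-IAA in animals with TIR1 (*irg-1*, *irg-3*, *irg-4*, *irg-5* and *irg-7*, all higher), where 8.88% of all tested genes did. *irg-3* passed the filter on low values only through the experimental condition, with a mean of 10.9 normalized counts there and 0.505, 1.36 and 0.315 with 5-Ph-IAA alone, TIR1 alone and neither, so its place in these counts says nothing, and with a mean of at least 10 required it was not tested and 4 genes were called. The difference of the ligand's effects met it for *irg-1*, *irg-4*, *irg-5* and *irg-7*, 4 of 6, beside 6.73% of all genes. All 5 experimental libraries were above the 15 others for those same 4 genes, and for 4.53% of all genes. With TIR1, log2 changes were 0.00 for *irg-2*, 0.80 for *irg-7*, 1.12 for *irg-1*, 2.89 for *irg-4* and 3.05 for *irg-5*. The median over all genes tested was -0.02. Without TIR1 the same genes had -0.51, -0.07, -0.43, 0.41 and 1.43, and the median over all genes was 0.00. Since the ligand's effect entered the choice of the family, these counts are a description.

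TIR1 was then compared in the presence of the ligand, that is, the experimental condition with the 5-Ph-IAA alone control. This comparison uses libraries of both 5-Ph-IAA comparisons, on which the family was picked, so its values too are a description without p-values. Here 9.17% of all tested genes met the call, and 5 of the 6 *irg* genes were called, all higher, or 4 without *irg-3*, which a mean of at least 10 leaves out. The median log2 difference over all genes tested was -0.01. *irg-7* was higher by 0.94 on the log2 scale (SE 0.04), with a 1.91-fold ratio of means. *irg-5* was higher by 1.65 (SE 0.21) and *irg-4* by 2.26 (SE 0.30). For the ZIP-2 targets the results parted, since *irg-1* was higher by 1.54 (SE 0.25) and *irg-2*, with a log2 difference of 0.39 (SE 0.19), was not called. *irg-3* had a fitted difference of 2.59 (SE 0.57), a value that ran from 1.29 to 4.23 over 11 other settings.

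TIR1 by itself gave no call. Of the 6 *irg* genes none was called for TIR1 alone against neither by limma, by edgeR or by DESeq2, and none had an unadjusted p under 0.05 in the limma fit, while 0.246% of all tested genes met the call. Log2 differences were -0.01 for *irg-1*, -0.13 for *irg-2*, -0.22 for *irg-4*, 0.04 for *irg-5* and 0.07 for *irg-7*, with SEs of 0.25, 0.19, 0.30, 0.21 and 0.04 in the same order. *irg-3*, with 6 reads in TIR1 alone and 1 in neither, had a value of 0.65 (SE 0.57). The signs for *irg-1*, *irg-4* and *irg-5* turned when single libraries were left out.

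The genes with the largest changes were not equally high in all experimental libraries. *irg-5* was highest in replicate 4 and *irg-4* in replicate 5, and for both genes these replicates stood above the other 3. The same replicates had the largest oocyte marker sums, 6679 and 6496 normalized counts, against 3959, 2586 and 4253 in replicates 1, 2 and 3. The controls varied in this. With neither component, replicate 5 had the highest *irg-5* (207) and *irg-4* (57.7) of its condition and also the largest oocyte sum of any control, 2934. Replicate 4 of TIR1 alone had the highest *irg-5* (319) and *irg-4* (52.1) of its condition with an oocyte sum of 1541, one of the lowest. Replicate 5 of TIR1 alone had an oocyte sum of 2627, above that of experimental replicate 2, with 174 counts of *irg-5* against 1182. For *irg-7* the 2 lowest values were in replicates 4 and 5 in each of the 4 conditions, whose oocyte sums were the largest only in the experimental condition. Its lowest library had the smallest sum of the condition with 5-Ph-IAA alone (replicate 5, 1479) and with neither (replicate 4, 1433). With TIR1 alone it had the largest (replicate 5, 2627).

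**Figure D3:**
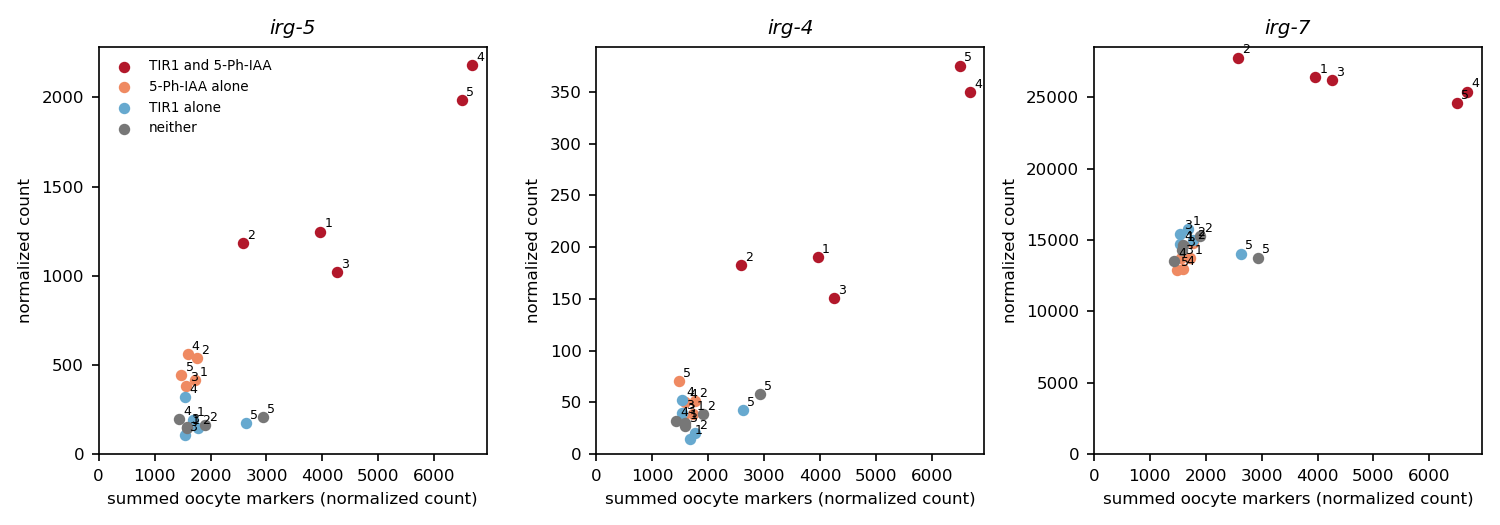
Normalized counts of *irg-5*, *irg-4* and *irg-7* (vertical axes, linear) against the sum of 10 oocyte markers in the same library (horizontal axis, normalized counts), 20 libraries colored by condition and labelled by replicate number. Experimental replicates 4 and 5, with oocyte sums of 6679 and 6496, are highest for *irg-5* and *irg-4* and lowest within their condition for *irg-7*.

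With the log2 oocyte sum as a covariate in the limma fit, the comparison of the experimental condition with 5-Ph-IAA alone called 2 *irg* genes in place of 5. Over all 17090 genes tested, calls in this comparison fell from 1568 to 653, so the loss was not particular to the *irg* genes. *irg-7* at a log2 difference of 1.05 and *irg-1* at 1.76 were still called, at values above those without the covariate. *irg-5* at 0.99, *irg-4* at 1.18 and *irg-3* at 1.48 had smaller values and were no longer called. For 5-Ph-IAA with TIR1 the covariate left 3 of 5 genes called, *irg-4* at 1.92, *irg-5* at 2.45 and *irg-7* at 0.90. For the difference of the ligand's effects it left *irg-7* alone. Calls over all genes went from 1517 to 701 in the first of these and from 1151 to 509 in the second. *irg-1* lost both calls at values no smaller than before, 1.32 beside 1.12 with TIR1 and 1.77 beside 1.55 for the difference. The log2 change of *irg-5* with 5-Ph-IAA alone was 1.51 with the covariate, beside 1.43 without it. The oocyte sum was itself higher in the experimental condition, so the covariate and the condition share much of their variation.

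Signaling genes upstream of these effectors were examined next. The p38 MAPK cascade, from the adaptor *tir-1* through the kinases *nsy-1*, *sek-1* and *pmk-1* to the transcription factor *atf-7*, had 12 genes tested and none called in any of the 5 comparisons (limma, 1.5-fold), a count near the share of 9.17% over all genes in the comparison with 5-Ph-IAA alone. The median log2 difference against 5-Ph-IAA alone was -0.07. Without the fold cutoff, 3 of the 12 passed the adjusted p of 0.05 in that comparison, beside 3369 of the 17090 genes tested. The 3 had log2 differences of -0.22 (*sek-1*), -0.24 (*tpa-1*) and 0.35 (*nipi-3*). *pmk-1* itself had 358 ± 26.8 normalized counts in the experimental condition and 376 ± 25.7 with 5-Ph-IAA alone.

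Of 15 transcription factors and surveillance regulators, 2 were called against 5-Ph-IAA alone, a count near the share of 9.17% over all genes. These were *zip-10* (1.20, limma adjusted p = 0.0316) and *nhr-8* (0.91, adjusted p = 3.29e-07), each higher in the experimental condition. *zip-2*, whose product acts on *irg-1* and *irg-2*, had 3936 ± 294 normalized counts in the experimental condition and 4015 ± 271 with 5-Ph-IAA alone, a log2 difference of -0.03 (adjusted p = 0.758). *elt-2*, the GATA factor of the intestine, was called with 5-Ph-IAA in animals with TIR1 (0.63, adjusted p = 0.00467). Its difference of 0.55 against 5-Ph-IAA alone was just under 1.5-fold.

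Effectors outside the *irg* names, known as p38 targets, included several that were higher. Of 13 names 12 matched a gene and 11 were tested, and 7 were called against 5-Ph-IAA alone, beside 9.17% of all genes, all higher, with a median log2 difference of 1.32. These were *K08D8.5* at 3.20 (limma adjusted p = 8.15e-06), *sysm-1* at 2.302 (adjusted p = 9.07e-05), *hpo-6* at 1.96 (adjusted p = 6.44e-13), *clec-67* at 1.34, the lysozyme *lys-2* at 1.33, *dod-24* at 1.32 and the C-type lectin *clec-85* at 0.94. None of the 11 was called for 5-Ph-IAA alone or for TIR1 alone, where only 0.0293% and 0.246% of all tested genes were called. The list was chosen with results of these libraries known, so its count is not independent of them.

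The intracellular pathogen response, a separate program set off by microsporidia and viruses, had 10 of 11 genes tested. Against 5-Ph-IAA alone, 1 was called higher and 1 lower, beside 9.17% of all genes. *skr-3* was the higher (0.77, limma adjusted p = 3.56e-05) and *F26F2.1* the lower (-0.94, adjusted p = 0.000384). The marker *pals-5* had a log2 difference of -0.09. Of the *cyp-35* cytochrome P450 genes, which are known to respond to foreign chemicals, 8 of 10 were tested and 2 met the call for 5-Ph-IAA alone. They were *cyp-35A1* at 1.80 (adjusted p = 0.0403) and *cyp-35C1* at 0.67 (adjusted p = 0.00548). With *irg-5* they make up 3 of the 5 genes called in that comparison. The *cyp-35* list too was chosen with results of these libraries known, so its p-values are not independent of them.

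The nearest protein-coding genes were examined for each *irg* gene, 3 on each side. Of 42 neighbors 33 were tested, and 12 were called higher and 1 lower in the experimental condition against 5-Ph-IAA alone, beside 9.17% of all genes. The 12 include *C32H11.4*, which passed the filter on low values only through the experimental condition. None of the neighbors was called for 5-Ph-IAA alone or for TIR1 alone, beside 0.0293% and 0.246% of all tested genes. On the reverse strand beside *irg-5*, *F35E12.6* (762 bp away), *F35E12.9* and *F35E12.10* had log2 differences of 0.90, 0.99 and 1.24 (limma adjusted p at most 1.65e-05). *F35E12.6* had 249.8 ± 27.7 normalized counts in the experimental condition, 132.7 ± 7.34 with 5-Ph-IAA alone, 94.6 ± 14.5 with TIR1 alone and 103 ± 12.2 with neither. Its log2 change with 5-Ph-IAA alone was 0.37 and was not called, whereas that of *irg-5* was 1.43.

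Of the 6 neighbors of *irg-6*, 5 were tested and 4 were called, although *irg-6* itself had 12 reads. *K08D8.5*, 592 bp away on the same strand, had 19.3 ± 4.45 normalized counts in the experimental condition and 1.35 ± 0.973 with 5-Ph-IAA alone, and *C32H11.4* had 17.4 ± 4.16 in the experimental condition and 1.20 ± 1.46 with 5-Ph-IAA alone. With means of 2.51 for TIR1 alone and 1.09 for neither, *C32H11.4* passed the filter on low values only through the experimental condition. Its place in the neighbor counts therefore says nothing. *K08D8.3* (log2 difference 2.49) and *K08D8.4* (1.41) were also called higher. Beside *irg-7*, *F28B4.3* lies 345 bp away on the same strand, and its log2 difference of 0.81 (adjusted p = 3.66e-09) was near the 0.94 of *irg-7*, whereas *F40F4.7* at 249 bp on the other side had 0.12 (adjusted p = 0.575). *F28B4.4* was the 1 neighbor called lower (-1.70, adjusted p = 0.0185). Beside *irg-2*, *C49G7.12* (log2 difference 1.54) and *phat-7* (0.78) were called higher, although *irg-2* itself, at 0.39, was not called. Beside *irg-4*, *col-130* and *clec-184* were called higher. Their means were 35.8 and 22.3 normalized counts in the experimental condition and 11.5 and 10.3 with 5-Ph-IAA alone. No tested neighbor of *irg-1* or *irg-3* was called, although *irg-1* itself was. Called neighbors thus did not go only with called *irg* genes.

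**Figure D4:**
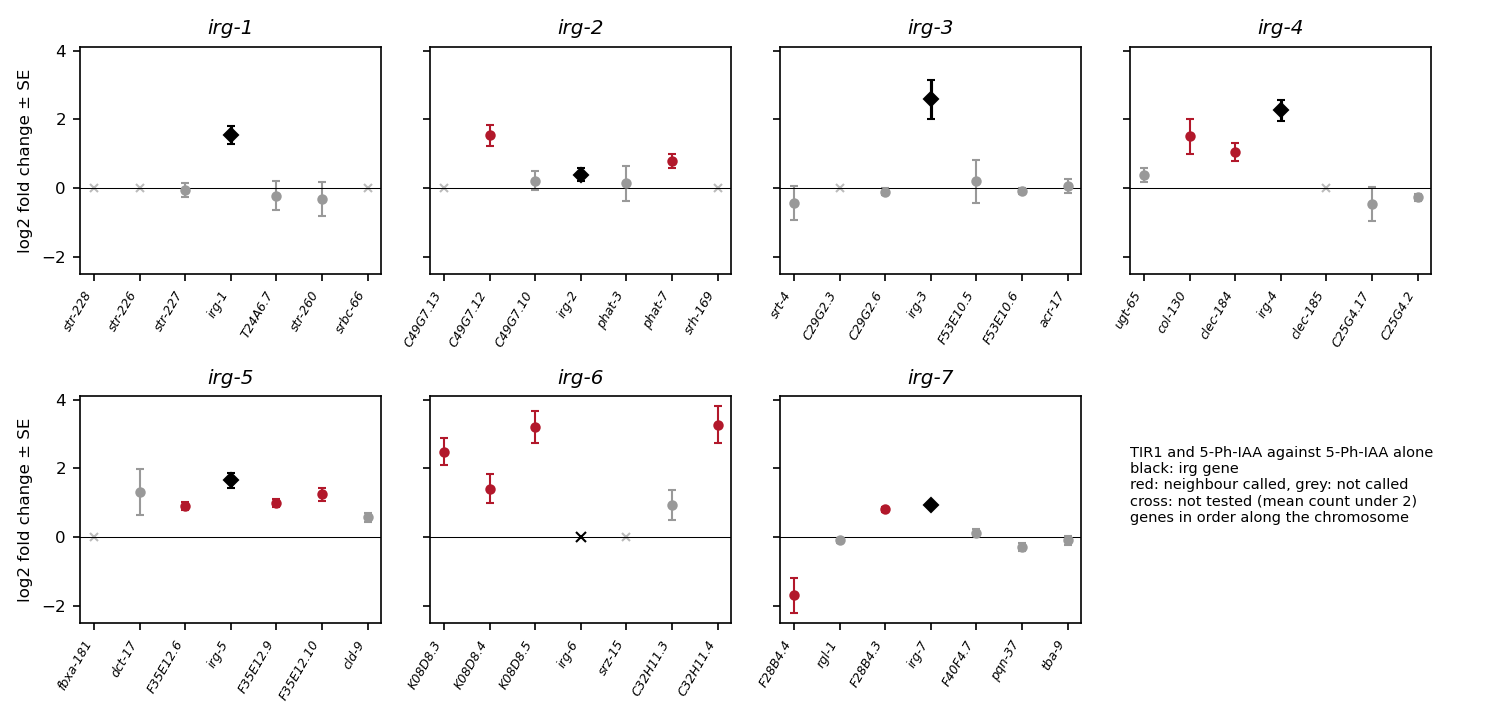
Log2 fold changes with standard errors, TIR1 and 5-Ph-IAA against 5-Ph-IAA alone, of each *irg* gene (black) and its 3 nearest protein-coding genes on each side in chromosome order; red points were called, grey points were not, and crosses mark genes not tested, drawn at 0. Called neighbors lie on both sides of *irg-5* and also beside *irg-2*, *irg-4* and *irg-7*, and none lies beside *irg-1* or *irg-3*. Beside *irg-6* they lie on the left, apart from *C32H11.4* on the right, which was tested only through its experimental values.

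Genes with the most similar profile over the 4 conditions were found by the Euclidean distance between condition means of log2(normalized count + 1), each centred on its own mean, among 13009 genes with a mean of at least 10. For *irg-5* the nearest were *cyp-35A5* (distance 0.468), *F49F1.5* (0.496) and *F10C2.7* (0.672), all farther away than the nearest genes of *irg-1*, *irg-2*, *irg-4* and *irg-7*, the other *irg* genes compared. *cyp-35A5* had 34.95 ± 18.9 normalized counts in the experimental condition, 13.6 ± 5.07 with 5-Ph-IAA alone, 5.94 ± 3.72 with TIR1 alone and 4.29 ± 2.16 with neither. The nearest to *irg-4* was *asah-2* (0.354), at 583 ± 54.4, 136 ± 19.7, 108 ± 15.8 and 118 ± 18.6 in the same order. *irg-1* was closest to *memi-3* (0.0402), *irg-2* to *gsto-2* (0.0566) and *irg-7* to *T09B4.8* (0.0262), each within a distance of 0.1. The distances rest on 20 libraries and 4 condition means.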

How the data were processed

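Total RNA of whole dauers was depleted of rRNA and sequenced by the authors as single-end reads. They used FastQC, Trimmomatic, STAR on WormBase WS284 and featureCounts; tool versions and the strand setting are not given in the sources used here. The deposited signal values are normalized counts, that is, reads on a gene over a library's DESeq2 size factor, with 1 column per replicate and 0 columns unused. Dividing by the value of 1 read gave whole reads for 100% of entries within 0.001.

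limma 3.58.1 (R 4.3.3, mean-variance trend) was fitted to log2(normalized count + 1) in all 20 libraries, with one mean per condition, for the 17090 genes with a mean of at least 2 (17335 genes were at 0 throughout). Benjamini-Hochberg adjustment covered all genes tested, and a call needed an adjusted p under 0.05 and 1.5-fold. edgeR 4.0.16 and DESeq2 1.42.0 on the whole reads were alternatives, as were pseudocount, filter, scaling, fold cutoff, oocyte covariate, replicate block and omission of each library. On simulated data with 200 genes of 17090 changed 3-fold, limma recovered 161, with 3 others called.

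The text names the 7 *irg* genes, 3 neighbors on each side, the 3 genes nearest in profile, and list members. The members and lists were chosen with earlier results of these data known. Replicates differed by more than counting error (lowest chi-square per degree of freedom 2.84). Gene identifiers were matched to the WBcel235 annotation for 46921 of 46925 genes. Sequences were not used here.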

Additional observations from a re-analysis of the deposited data

Results flagged for a closer look

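In *irg-3*, replicate 5 of the experimental condition stood apart from the other 4 at 32.01 normalized counts (11 reads), with a gap of 0.763 of the range of its condition. Replicate 5 of TIR1 alone stood apart in the same gene at 4.58 normalized counts (4 reads), with a gap of 0.722 of the range. Chance gives such a gap in about 1 in 20 groups of 5 normally distributed values, which counts this low are not. In reads, experimental replicate 5 did not stand apart, with 11 beside 12, 9, 4 and 7 in replicates 1 to 4.

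The log2 change with 5-Ph-IAA differed between animals with and without TIR1 in 4 genes by limma's interaction term, by 1.55 for *irg-1*, 2.48 for *irg-4*, 1.61 for *irg-5* and 0.87 for *irg-7*. The family was chosen with the ligand's effects known, so these are given as values.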

How the results depend on the processing

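The numbers of *irg* genes called (5 for 5-Ph-IAA with TIR1, 1 for 5-Ph-IAA alone, 4 for the interaction, 5 for TIR1 with 5-Ph-IAA and 0 for TIR1 alone) were the same in number in all 20 fits that left out 1 library. They moved with the oocyte covariate to 3, 1 (interaction) and 2 (TIR1 with 5-Ph-IAA). Among fold changes under other settings, 337 kept direction and side of the threshold, 8 lost the call (all with the covariate, 2 of them *irg-1* values that grew, to 1.32 and 1.77) and 4 turned sign. With a mean of at least 10 required, *irg-3* was not tested and the counts with TIR1 and for TIR1 with 5-Ph-IAA were 4. *irg-2* for 5-Ph-IAA with TIR1 turned to -0.0797 with quantile normalization and -0.0532 with equal totals, and *irg-1* for TIR1 alone to 0.0015 and 0.0154; without 1 library these ran between -0.10 and 0.0898 and between -0.18 and 0.12, *irg-4* for TIR1 alone between -0.41 and 0.0235, and *irg-5* between -0.18 and 0.22. The cause was not tested. The labels do not say what a replicate number marks, and 16 of 30 same-numbered pairs had correlated deviations over 0.1 (-0.18 to 0.44), so libraries were not treated as paired. As a hint from the data, same-numbered libraries were more alike (median correlation 0.11, against -0.02 for others), and 15 of 20 libraries were closest to their own number. With a replicate block the *irg* counts were 5, 1, 4, 5 and 0, and calls over all genes for 5-Ph-IAA alone were 18 in place of 5. Over all genes, dropping the fold cutoff gave 3237, 1840 and 3369 calls for 5-Ph-IAA with TIR1, the interaction and TIR1 with 5-Ph-IAA, and the oocyte covariate 701, 509 and 653, in place of 1517, 1151 and 1568. For 5-Ph-IAA alone DESeq2 gave 12 and a fit of the compared conditions 11. For TIR1 alone 42 genes became 107 with the block and 103 without a fold cutoff. The depth limits *irg-3* and *irg-6*, with 53 and 12 reads.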
